A study of Mus musculus with 4 samples.

Results

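The 10 genes described here are members of the HoxC and HoxD clusters with reads in NIH-3T3 fibroblasts that carry an inducible CDX2 transgene. They are Hoxc4, Hoxc5, Hoxc6, Hoxc8, Hoxc9 and Hoxc10 of HoxC and Hoxd3, Hoxd4, Hoxd8 and Hoxd9 of HoxD. They were found by gene symbol and make up 10 of 25177 symbols, or 12 of 40739 transcript rows, in the authors' deposited table. They were chosen by their level and fold change in these data, so the values below describe them and the counts over them support nothing further. The name "expressed" holds for 8 of the 10, since Hoxc8 and Hoxc9 had next to no reads, while Hoxc13, which is not among the 10, had a higher mean count than Hoxc10 or Hoxc4.

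Nuclear RNA was sequenced from 4 samples of this line, 2 given doxycycline (Dox) at 500 ng/ml for 6 h and 2 given solvent alone (noDox), with 500000 cells each. Cells of both groups carry the histone fusion H2B-mCherry, the doxycycline-activated rtTA3G transactivator and CDX2 behind the TRE3G promoter, and both grew in puromycin. NIH-3T3 is an established line of mouse embryonic fibroblasts, and no label says whether the CDX2 cells are 1 clone. The comparison asks how nuclear transcripts differ once CDX2 has been induced. None of the 4 samples is of cells without the CDX2 transgene. Effects of doxycycline or of active rtTA3G therefore cannot be told apart here from those of CDX2.

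Hox genes encode homeodomain transcription factors that give cells their position along the body axis. They lie in clusters whose gene order follows the anterior to posterior order of their expression domains, and genes at the same place in different clusters are paralogues, numbered alike. CDX2 is itself a homeodomain factor of the posterior embryo and gut, and CDX proteins are known regulators of Hox genes there. Cultured fibroblasts keep part of the Hox pattern of the tissue they came from.

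With doxycycline, Hoxd3, Hoxd4 and Hoxc6 rose and Hoxd8 and Hoxd9 fell in the authors' deposited table. The rises were 1.88-fold for Hoxd3, 1.87-fold for Hoxd4 and 1.57-fold for Hoxc6, while Hoxd8 and Hoxd9 were 1.34-fold and 1.33-fold lower, as computed from the log2 fold changes of the authors' deposited table. Of the 10 genes, 8 had at least 10 counts per library on average, which was the floor for a test, and with an adjusted p below 0.05 as the call, 3 of them were higher, 2 lower and 3 not called in the authors' deposited table. Over all 12355 genes tested the same rule called 24.7%, with 11.3% higher and 13.4% lower, in the authors' deposited table. The rule that chose the 10 genes used this comparison, so nothing is read from their count. The median log2 fold change was -0.03 over the 8 and 0.00 (-0.001146) over all genes tested.

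The promoters of the 4 HoxD genes are shown because these neighbours changed in opposite directions although their starts lie within 24.2 kb. Each window runs from 250 bases before to 50 bases after a transcript start, as RefSeq gives it for GRCm38.p6 (the mm10 build), on the plus strand, 5′ to 3′; the sequences follow the order Hoxd4 (chr2:74721728-74722027), Hoxd3 (chr2:74711743-74712042), Hoxd8 (chr2:74704365-74704664) and Hoxd9 (chr2:74697513-74697812). Capitals mark letters known as binding sites of CDX-type homeodomains, here the motif CATAAA, the motif CAATAAA and the motif TTTATNG on either strand. The 3 patterns overlap, since CAATAAA is one form of TTTATNG read on the other strand and TTTATGG holds CATAAA read on the other strand.
Hoxd4: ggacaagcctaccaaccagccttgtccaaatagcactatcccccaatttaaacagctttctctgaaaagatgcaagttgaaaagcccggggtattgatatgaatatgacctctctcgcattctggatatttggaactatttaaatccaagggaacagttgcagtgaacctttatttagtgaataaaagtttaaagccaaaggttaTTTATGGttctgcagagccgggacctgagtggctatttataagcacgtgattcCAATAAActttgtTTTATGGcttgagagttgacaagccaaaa
Hoxd3: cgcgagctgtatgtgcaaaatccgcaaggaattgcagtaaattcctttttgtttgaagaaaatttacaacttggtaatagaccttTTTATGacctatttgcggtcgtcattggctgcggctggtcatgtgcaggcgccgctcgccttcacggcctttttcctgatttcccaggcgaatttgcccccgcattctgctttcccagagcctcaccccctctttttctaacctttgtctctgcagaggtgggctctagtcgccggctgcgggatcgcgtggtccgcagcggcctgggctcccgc
Hoxd8: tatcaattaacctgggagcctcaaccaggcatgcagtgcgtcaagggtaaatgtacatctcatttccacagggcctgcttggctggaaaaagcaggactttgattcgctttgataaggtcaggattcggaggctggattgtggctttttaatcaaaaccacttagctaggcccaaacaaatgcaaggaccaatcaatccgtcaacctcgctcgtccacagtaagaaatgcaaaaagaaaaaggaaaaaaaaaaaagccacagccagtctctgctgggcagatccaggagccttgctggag
Hoxd9: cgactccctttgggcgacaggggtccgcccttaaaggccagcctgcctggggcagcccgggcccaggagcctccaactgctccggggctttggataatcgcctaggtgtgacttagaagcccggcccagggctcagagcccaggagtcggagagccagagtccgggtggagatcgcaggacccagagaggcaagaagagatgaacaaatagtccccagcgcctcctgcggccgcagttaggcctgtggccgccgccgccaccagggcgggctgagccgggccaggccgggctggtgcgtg

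The Hoxd4 window holds 3 separate stretches of these letters, which begin at positions -45, 9 and 22, where 1 is the first base of the transcript. At least 3 such stretches occur in 0.393% of all 32851 windows of the same length, and at least 1 in 18.9%. The Hoxd3 window holds 1 stretch, at position -165, and the windows of Hoxd8 (at its upstream start), Hoxd9 and Hoxc4 hold 0. Among the 24 windows of 22 Hox genes in the RefSeq table, 5 stretches in Hoxb8 were the largest number and Hoxd4 came next. The Hoxd4 window is also richer in A and T (60.3%) than that of Hoxd3 (46.0%), Hoxd8 (53.3%), Hoxd9 (31.7%) or Hoxc4 (39.7%), and the median over all windows is 47.3%. Singly, CATAAA is found in 11.9%, CAATAAA in 4.6% and TTTATNG in 10.9% of all windows, on either strand.

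Other letters searched on both strands were TGATNNAT, a site of PBX-HOX pairs, TGACAG, a MEIS site, and the direct repeat element of retinoic acid receptors. They are in 8.85%, 19.2% and 0.00913% of all windows, and in 0 of the 5 windows of members. The other 5 members are Hoxc5, Hoxc6, Hoxc8, Hoxc9 and Hoxc10. The Hoxd8 window belongs to the upstream of its 2 starts, 0.874 kb before the start of the other 2 Hoxd8 rows. The row used for Hoxd8 below is among those 2, so the letters around its own start were not searched. A match describes letters in these windows and is not a measured binding site.

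Every direction given here rests on Cdx2, the induced gene. The headers of the authors' deposited table do not say which group is on top of its fold changes, so the positive sign of Cdx2 was taken to mean doxycycline over solvent, and that sign is no separate check of the labels. Cdx2 stood at 612 CPM (counts scaled to library size) with doxycycline and 4.96 CPM with solvent, a log2 fold change of 6.95 ± 0.091 (± standard error), in the authors' deposited table. Transgene and endogenous reads are not told apart in that row. That table gives 1 fold change and 1 mean level per transcript and no value per library, so group levels below are geometric means, set apart by the fold change and centred on the mean level, and they carry no spread of their own. Depth, worked out from rows without reads in the authors' deposited table, was close to 45700000 counts per library.

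The errors in that table need a limit of their own. The level and fold change of a transcript accounted for 99.2% of the variation in its log standard error over 19541 rows at log2 CPM 2 or above, where Hoxd8 and Hoxd9 lie. They accounted for 97.4% over 5039 rows between the floor and that level, where the other 6 tested members lie, so the errors borrow from all transcripts and do not rest on each gene's own replicates. Once all standard errors were multiplied by 2.08, a robust estimate of the SD of t, 0 of the 8 Hox genes were called higher or lower by a normal test with Benjamini-Hochberg adjustment, and 4.66% of all genes tested were (1.54% higher, 3.12% lower). That factor was taken over all genes tested, so it may hold real changes as well as error. It is not an estimate of the spread between replicates. At an unadjusted p under 0.05, 5 of the 8 passed in the authors' deposited table, the same genes as at the adjusted cut. No share over all genes was worked out at that unadjusted cut, so nothing is read from this count. With the authors' scaling and adjustment 45.7% of called genes were higher, and 46.4% were with adjustment over the genes tested. With that adjustment and the median of 82 ribosomal protein genes set to 0, 59.5% were.

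**Figure D1:**
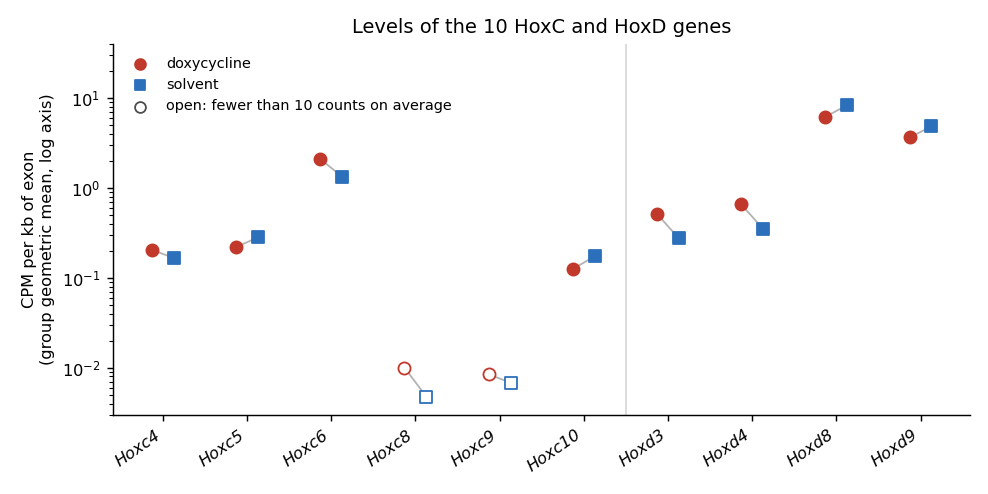
Group geometric mean levels of the 10 genes in CPM per kb of exon (log axis), doxycycline as circles and solvent as squares, with no error bars because no value per library was used. Hoxd8 and Hoxd9 stand highest in both groups, Hoxd3, Hoxd4 and Hoxc6 are higher with doxycycline, and the open symbols of Hoxc8 and Hoxc9 lie near the constant added to counts of 0.

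Hoxd8 was the most abundant of the 10 genes per kb of exon, followed by Hoxd9 and Hoxc6. The mean level over both groups was 7.19 CPM per kb for Hoxd8, 4.2 for Hoxd9, 1.67 for Hoxc6, 0.480 for Hoxd4, 0.376 for Hoxd3, 0.249 for Hoxc5, 0.185 for Hoxc4 and 0.148 for Hoxc10. Taking the error of a mean level as 0.5 times that of its fold change, the 95% interval of each step down this order excluded 0 except for the last, Hoxc4 over Hoxc10, whose log2 ratio was 0.32 (interval -0.11 to 0.75). Of the other steps the smallest was Hoxd4 over Hoxd3, with a log2 ratio of levels of 0.35 (0.10 to 0.61). This order is of levels averaged over both groups, and it is not the order in each: Hoxd3 was above Hoxc5 with doxycycline (0.515 and 0.220 CPM per kb) and just below it with solvent (0.274 and 0.282). Hoxc4 was likewise above Hoxc10 with doxycycline (0.205 and 0.125) and below it with solvent (0.167 and 0.174). Among all 39 Hox genes in the table, Hoxd8 ranked 2 with doxycycline and 1 with solvent, and Hoxd9 ranked 4 and 3. Hoxc6 ranked 6 with doxycycline and 9 with solvent, Hoxd4 ranked 13 and 18, and Hoxd3 ranked 16 and 20.

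The HoxD genes set most of the summed level of the 10 genes. Their summed level was 11.03 CPM per kb with doxycycline and 13.8 with solvent, a ratio of 0.799, while the 6 HoxC genes summed to 2.66 with doxycycline and 1.97 with solvent, a ratio of 1.35. Over all Hox genes in the table, the HoxD cluster made up 29.6% of the summed level with doxycycline and 33.4% with solvent, and the HoxC cluster 7.73% and 5.13%. In bulk RNA fewer cells with a transcript and less of it per cell cannot be told apart.

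Hoxd3 and Hoxd4, patterning genes of the hindbrain and neck vertebrae, rose by almost the same amount. Hoxd3 (NM_010468, mm10 chromosome 2, 74711993 to 74748271, plus strand, 3 exons in GENCODE M21) was at 1.49 CPM with doxycycline and 0.794 CPM with solvent, or 72.7 and 33.3 counts per library as geometric means, from the authors' deposited table. Its log2 fold change was 0.91 ± 0.19 (95% interval 0.54 to 1.28, limma, adjusted p 2.82e-05) in the authors' deposited table. Both values are of a gene of low level, with 12.1% of the genes tested below its mean. Hoxd4 (NM_010469, chromosome 2, 74721978 to 74729159, plus strand, 6 exons in GENCODE M21) was at 1.67 CPM with doxycycline and 0.894 CPM with solvent, or 81.7 and 37.5 counts per library, from the authors' deposited table. Its log2 fold change was 0.90 ± 0.17 (0.57 to 1.24, limma, adjusted p 3.79e-06) in the authors' deposited table. A larger rise was listed for 0.793% of the genes tested in the case of Hoxd3 and for 0.809% in the case of Hoxd4.

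The rows of Hoxd3 and Hoxd4 may not be separate measurements. All 6 exons of Hoxd4 lie inside the first intron of Hoxd3 (31.6 kb, 74712317 to 74743927) on the same strand, and nuclear RNA holds unspliced transcripts. In the GENCODE M21 annotation, a Hoxd4 transcript covers 388 exon bases of Hoxd3 (13.1% of its exons). The transcript of another gene there, Gm28230, takes in 75.0% of the exon bases of Hoxd3 and 45.1% of those of Hoxd4. The difference between their log2 fold changes was 0.00 (0.0033), with a 95% interval of -0.50 to 0.51, computed as if the errors were independent. Reads of a shared or unspliced transcript cannot be told apart here from reads of either gene.

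Hoxd8 and Hoxd9, which pattern the trunk and the limbs, fell by like amounts. Hoxd8 (NM_008276, chromosome 2, 74705489 to 74707932, plus strand) was at 12.7 CPM with doxycycline and 17.0 CPM with solvent, or 624 and 724 counts per library, from the authors' deposited table. Its log2 fold change was -0.42 ± 0.081 (-0.58 to -0.26, limma, adjusted p 4.30e-06) in the authors' deposited table. Hoxd9 (NM_013555, chromosome 2, 74697763 to 74700208, plus strand) was at 7.64 CPM with doxycycline and 10.2 CPM with solvent, or 375 and 431 counts per library, from the authors' deposited table. Its log2 fold change was -0.41 ± 0.093 (-0.59 to -0.23, limma, adjusted p 1.62e-04) in the authors' deposited table. Such falls are small beside the largest in the data, since 6.51% of the genes tested fell further than Hoxd8 and 6.91% further than Hoxd9.

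Hoxd8 has 3 transcript rows, and they moved alike. The row of NM_001290730 had a log2 fold change of -0.42 ± 0.081 and that of NM_001290731, which starts upstream, -0.40 ± 0.086 in the authors' deposited table. Their levels were 6.21 CPM per kb with doxycycline and 8.32 with solvent for NM_001290730, and 6.11 and 8.07 for NM_001290731, against 6.21 and 8.33 for NM_008276. The 3 rows overlap on the same strand and share reads, so they are not replicates.

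The rising and the falling HoxD pairs stood apart in value. Hoxd4 minus Hoxd9 was 1.31 on the log2 scale (95% interval 0.93 to 1.70), and Hoxd3 minus Hoxd8 was 1.33 (0.93 to 1.73), as a description of values that were known beforehand. Hoxd8 minus Hoxd9 was -0.01 (-0.26 to 0.23). The start of Hoxd3 lies 4.06 kb beyond the end of Hoxd8. Per kb of exon, Hoxd8 was 9.45 times as abundant as Hoxd4 with doxycycline and 23.7 times with solvent, so the order of levels stayed while the gap narrowed.

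In the HoxC cluster, 1 member was called, Hoxc6, a gene of the thoracic region. Hoxc6 (NM_010465, mm10 chromosome 15, 103009562 to 103011881, plus strand) was at 3.33 CPM with doxycycline and 2.12 CPM with solvent, or 163 and 89.9 counts per library, from the authors' deposited table. Its log2 fold change was 0.65 ± 0.14 (0.37 to 0.92, limma, adjusted p 5.66e-05) in the authors' deposited table, and 2.10% of the genes tested rose further.

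Hoxc5 and Hoxc4, the neighbours of Hoxc6 at the anterior end of the cluster, were not called. Hoxc5 (NM_175730, chromosome 15, 103014008 to 103017429) was at 0.60 CPM with doxycycline and 0.769 CPM with solvent, with a log2 fold change of -0.36 ± 0.22 (-0.79 to 0.08, limma, adjusted p 0.380) in the authors' deposited table. Hoxc4 (NM_013553, chromosome 15, 103034395 to 103036852) was at 0.406 CPM with doxycycline and 0.330 CPM with solvent, with a log2 fold change of 0.30 ± 0.27 (-0.24 to 0.83, limma, adjusted p 0.664) in the authors' deposited table. For Hoxc4 the interval takes in both no change and a rise as large as that of Hoxc6. Hoxc6 minus Hoxc5 was 1.00 on the log2 scale (0.49 to 1.52), although the gap between the genes is 2.13 kb, and Hoxc6 minus Hoxc4 was 0.35 (-0.25 to 0.95).

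Hoxc10, a gene of the lumbar region and hindlimb, lay just above the floor of 10 counts. Hoxc10 (NM_010462, chromosome 15, 102966796 to 102971897) was at 0.240 CPM with doxycycline and 0.332 CPM with solvent, or 11.3 and 13.6 counts per library, from the authors' deposited table. Its log2 fold change was -0.47 ± 0.35 (-1.15 to 0.21, limma, adjusted p 0.507) in the authors' deposited table. Its standard error was larger than that of 99.0% of the genes tested, so a change of the size seen in Hoxd8 was not detectable at this depth.

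Hoxc8 and Hoxc9, genes of the thoracic level, were near the limit of detection. Hoxc8 (NM_010466, chromosome 15, 102990539 to 102994254) had a geometric mean of 0.666 counts per library with doxycycline and 0 with solvent, and Hoxc9 (NM_008272, chromosome 15, 102977032 to 102984444) 0.213 and 0, as worked out from the authors' deposited table. Both groups lie under 3 counts, so no fold is given for either gene. Their adjusted p values were 0.484 and 0.873 in the authors' deposited table.

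Most other genes of both clusters had few reads or none. Of 9 HoxC genes in the table, Hoxc11 and Hoxc12 had no reads, and of 9 HoxD genes, Hoxd1, Hoxd10, Hoxd11 and Hoxd12 had none. Hoxc13, a gene of hair and nail, was at 0.510 CPM with doxycycline and 0.313 CPM with solvent, with a log2 fold change of 0.70 ± 0.32 (limma, adjusted p 0.134), in the authors' deposited table. Hoxd13, the digit patterning gene, had a geometric mean of 1.44 counts per library with doxycycline and 0 with solvent, from the authors' deposited table. Evx2, the homeobox gene next to Hoxd13, had no reads. The Hox genes with at least 10 counts form 1 block in HoxD, from Hoxd9 to the end of Hoxd3, which spans Hoxd4. Hoxd10 and Hoxd1 on its sides had no reads. In HoxC they lie in 3 separate places.

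Among noncoding transcripts of the clusters, Gm38462 and Hoxd3os1 passed the floor of 10 counts, and the others named here had few reads or none. The mean was 44.0 counts per library for the higher row of Gm38462, 30.3 for its other row and 12.9 for Hoxd3os1. These levels are like those of some members, since Hoxc5 had a mean of 30.6 counts and Hoxc10 one of 12.4. Hoxd3os1, antisense to the start of Hoxd3, had a log2 fold change of -0.14 ± 0.31 (limma, adjusted p 0.873) in the authors' deposited table. Gm38462 lies on the opposite strand at Hoxd8. Its row that spans all of Hoxd8 had -0.23 ± 0.22 (limma, adjusted p 0.698) in the authors' deposited table. Its row of higher level, which takes in only the start of Hoxd8, had -0.42 ± 0.20 (limma, adjusted p 0.161). Within GENCODE M21 Hoxd3os1 shares 347 exon bases with Hoxd3 on the other strand. The library kit keeps strand, but no source used here gives the strand setting of the counting, so reads of such pairs may not have been parted. Haglr, antisense beside Hoxd1, had geometric means of 2.40 counts per library with doxycycline and 0.357 with solvent, from the authors' deposited table. Haglr and Hotair, the noncoding RNA between Hoxc12 and Hoxc11, lie under 3 counts in both groups, and no fold is given. The microRNA genes Mir10b, which lies within Hoxd4, and Mir196a-2 had no reads, and Mir615 within Hoxc5 had 0.211 counts with doxycycline and 0 with solvent. Kits for long RNA largely miss mature microRNAs.

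Long identical stretches with other Hox genes were few. Between the transcripts of the 10 genes and those of the other Hox genes, 39 in all, the longest exact run in common was 50 bases, between Hoxb9 and Hoxc9, among 335 pairs compared. Next came 47 bases between Hoxb3 and Hoxd3 and 40 bases between Hoxb9 and Hoxd9. In GENCODE M21 a long Hoxc5 transcript spans Hoxc6, Hoxc8 and Hoxc9 and covers 166 exon bases of Hoxc10 on the same strand.

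**Figure D2:**
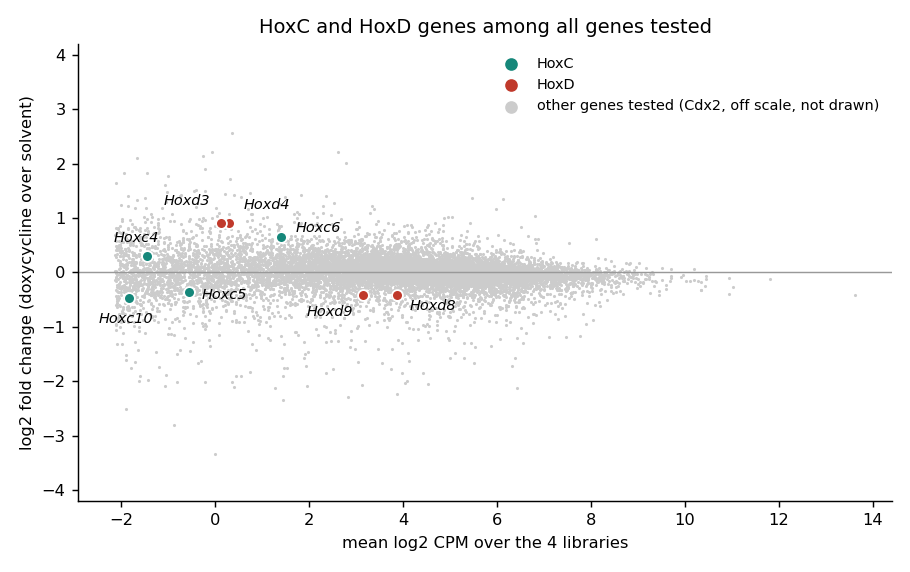
Log2 fold change (doxycycline over solvent) against mean log2 CPM over the 4 libraries for the 12355 genes tested except Cdx2, which lies off the axis, with the 8 Hox genes marked. Hoxd3, Hoxd4 and Hoxc6 lie above 0 and Hoxd8 and Hoxd9 below 0 at a higher level, while Hoxc4, Hoxc5 and Hoxc10 lie among low genes with wide spread.

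The paralogues of these genes in HoxA and HoxB give the comparison within each group. In paralogue group 4, the log2 fold change was 0.90 ± 0.17 for Hoxd4 and 0.30 ± 0.27 for Hoxc4, against -2.01 ± 0.23 for Hoxa4 and 1.2 ± 0.20 for Hoxb4, in the authors' deposited table. Hoxd4 minus Hoxb4 was -0.30 (95% interval -0.82 to 0.22) and Hoxd4 minus Hoxa4 was 2.91 (2.35 to 3.48). The summed level of the group was 1.59 CPM per kb with doxycycline and 1.84 with solvent. In group 3, Hoxd3 minus Hoxb3 was -0.49 (-0.92 to -0.06) and Hoxd3 minus Hoxa3 was 3.25 (2.78 to 3.72), and the summed level of the 3 genes was 3.44 with doxycycline and 3.64 with solvent. In both groups the HoxD gene stood with its HoxB paralogue in sign and against its HoxA paralogue.

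In groups 5 and 6 the values of the HoxC genes lay between those of their HoxA and HoxB paralogues, although the interval between Hoxc6 and Hoxb6 takes in 0. Hoxc5 minus Hoxa5 was 1.36 (0.86 to 1.87) and Hoxc5 minus Hoxb5 was -1.11 (-1.64 to -0.59). Hoxc6 minus Hoxa6 was 1.28 (0.89 to 1.67) and Hoxc6 minus Hoxb6 was -0.21 (-0.56 to 0.14). The summed level of group 6 was 7.28 CPM per kb with doxycycline and 4.99 with solvent, and that of group 5 was 2.54 and 4.71.

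In groups 8 and 9 the HoxD genes fell, with fold changes below those of the HoxB genes. Hoxd8 minus Hoxb8 was -0.97 (-1.29 to -0.65), beside a log2 fold change of 0.55 ± 0.14 for Hoxb8 in the authors' deposited table. Hoxd9 minus Hoxb9 was -0.58 (-0.82 to -0.35), beside 0.18 ± 0.076 for Hoxb9 (limma, adjusted p 0.111) in the authors' deposited table. Hoxa9 had a mean of 1.84 counts per library and was not tested. In group 10, Hoxc10 and Hoxa10 (0.21 ± 0.17, limma, adjusted p 0.558) were both not called in the authors' deposited table. Across all Hox genes tested, HoxC had 1 higher and 0 lower of 5 and HoxD 2 and 2 of 4 in the authors' deposited table. HoxA had 0 and 6 of 8 and HoxB 5 and 0 of 7 there. Over all genes tested, 11.3% were called higher and 13.4% lower. The 10 genes were chosen with this comparison known, so nothing is read from the HoxC and HoxD counts.

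**Figure D3:**
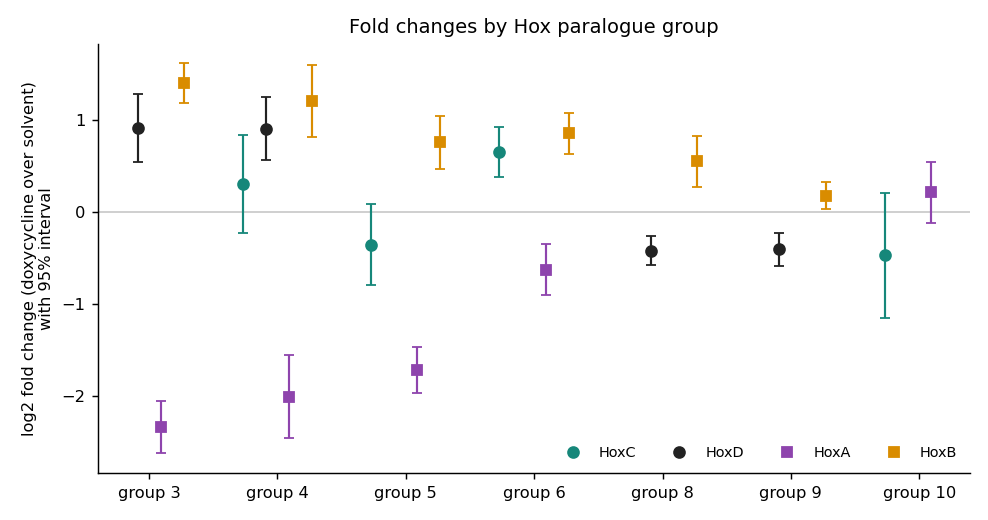
Log2 fold change (doxycycline over solvent) with 95% intervals for every Hox gene with 10 or more mean counts in the paralogue groups of the 10 genes, circles for HoxC and HoxD and squares for HoxA and HoxB. The HoxD genes lie above 0 in groups 3 and 4 and below 0 in groups 8 and 9, while the HoxB genes lie above 0 in all 6 groups where 1 was tested.

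Genes beside the clusters were set against the 24.7% called over all genes tested. Of 7 genes tested on the HoxD side, 0 were called in either direction by limma, among them Lnpk, an endoplasmic reticulum protein gene (-0.08 ± 0.069), and Mtx2, a mitochondrial import gene (0.01 ± 0.072), which border the cluster in the authors' deposited table. At an unadjusted p under 0.05 there was 1, Chn1 (-0.27 ± 0.13), in the authors' deposited table. Other transcripts of Chn1 were called lower there (-0.42, limma, adjusted p 0.0343, and -0.39, limma, adjusted p 0.0407). The count of 0 on the HoxD side thus holds for the transcript of highest level of each gene. Of 8 tested on the HoxC side, 2 fell and 0 rose: Cbx5, which encodes heterochromatin protein HP1 alpha (-0.24 ± 0.060, limma, adjusted p 0.00101), and the splicing factor gene Hnrnpa1 (-0.23 ± 0.062, adjusted p 0.00216), which has near-identical copies elsewhere in the genome that could share its reads, in the authors' deposited table. At an unadjusted p under 0.05 the HoxC side also had Zfp385a (-0.16 ± 0.072) and Calcoco1 (0.17 ± 0.082) in the authors' deposited table. As a median, the log2 fold change was -0.03 on the HoxD side and -0.09 on the HoxC side.

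Hox proteins bind DNA with TALE homeodomain partners of the PBX, MEIS and PKNOX families. By the call of the authors' deposited table, 4 of 8 partner genes tested rose and 1 fell, beside 24.7% called over all genes tested, with a median log2 fold change of 0.23. Pknox1 rose by 0.25 ± 0.077 and Meis1 fell by 0.51 ± 0.099, in the authors' deposited table. Meis3 (0.27 ± 0.091) and Pbx2 (0.21 ± 0.075) also rose in the authors' deposited table.

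Polycomb and trithorax proteins keep Hox clusters silent or active. Among 28 such genes with enough reads, 6 rose, 2 fell and 20 were not called in the authors' deposited table, against 24.7% called over all genes tested, a share close to that of the list, and with a median log2 fold change of 0.05. Kdm6b, which encodes a demethylase of the Polycomb mark, rose by 0.69 ± 0.066, and the Polycomb genes Jarid2 (0.43 ± 0.072) and Cbx8 (0.51 ± 0.093) rose as well in the authors' deposited table. Of 7 retinoic acid pathway genes tested, 0 rose and 3 fell by the transcript of highest level, against 11.3% higher and 13.4% lower over all genes tested. The 3 were Rdh10, of retinoic acid synthesis (-0.71 ± 0.074), the receptor gene Rara (-0.68 ± 0.075) and Cyp26b1, of its breakdown (-0.52 ± 0.088), in the authors' deposited table. Another transcript of Rarg, a receptor gene, was called higher (NM_001042727, 0.24, limma, adjusted p 0.00239), while its transcript of highest level was not (0.16 ± 0.065, adjusted p 0.0795), in the authors' deposited table. Over the 7 the median log2 fold change was -0.11.

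The labelled cell type was checked against marker genes. All 11 fibroblast markers were tested, with 0 higher and 7 lower, against 11.3% higher and 13.4% lower over all genes tested. Their summed level was 6320 CPM with doxycycline and 7491 with solvent, from the authors' deposited table. The 7 epithelial markers summed to 0.730 CPM with doxycycline and 1.62 with solvent, the 4 intestinal ones to 0.496 and 0.570, the 4 endothelial ones to 3.95 and 4.62, and the 3 blood ones to 0.931 and 1.09. In each of these 4 lists 1 gene had enough reads for a test, and of these Cdh1, the epithelial cadherin, fell (-1.62 ± 0.22) in the authors' deposited table. Among markers with too few reads for the floor, Krt19, an epithelial keratin, had geometric means of 5.77 counts per library with doxycycline and 0 with solvent (limma, adjusted p 2.07e-07), from the authors' deposited table. Cdh17, an intestinal cadherin, had 2.97 with doxycycline and 0 with solvent (limma, adjusted p 0.00287), from the authors' deposited table. The 3 stem cell markers, Pou5f1, Nanog and Sox2, summed to 0.0375 CPM and 0.0703, and Krt18, Cldn4 and Adgre1 had no reads. The part of the lower fibroblast markers and of these epithelial and intestinal ones in the Hox values was not tested.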

How the data were processed

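Per the submitters' processing notes, the tools were limma, edgeR, HOMER 4.10, Picard, SAMtools 1.10 and STAR 2.7.1a, on the mm10 build, with no role or order given. The authors deposited limma output which, per the file headers, holds for each RefSeq transcript the log2 fold change, average log2 CPM, moderated t score, p-value and adjusted p-value. The headers name no direction; Dox minus noDox was taken from the positive sign of Cdx2. The dose is that of the extraction protocol; the treatment protocol writes it per microlitre. Labels do not say that replicates were separate cultures, so p-values may reflect technical spread only.

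The planned count tests could not be run without values per library, so the authors' limma test was used. Standard errors are the log2 fold change over t, and 95% intervals assume normal, independent errors. A gene is its transcript with the highest mean. Low rows are whole steps above rows without reads (100% of 14067, tolerance 0.01), as for counts with 0.5 added, which gave counts per library. The floor for a test was a mean of 10 counts (0.230 CPM), and a call an adjusted p below 0.05. The members, lists and motifs were chosen with earlier results of these data known. Named genes are the members, all genes of both clusters, and up to 4 called genes per list in order of p. Other paralogues, Hoxa7, Pbx2, Chn1, Lnpk, Mtx2, Zfp385a, Calcoco1, Rarg and single markers were named after their values were seen. Haglros was not analysed here, and some genes that the rule names are not reported here. Exons came from GENCODE M21, matched by RefSeq identifier. Work was done in Python 3.11.15 with pandas 2.3.3, NumPy 2.4.6, SciPy 1.17.1 and matplotlib 3.10.9. The calling was tested on simulated data drawn with these same standard errors, so that test does not check the size of the errors.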

Additional observations from a re-analysis of the deposited data

How the results depend on the processing

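No paired analysis was possible because the table used here holds no value per library; for the same reason a replicate block, leaving out single libraries, edgeR and DESeq2 were not run. Widening the standard errors by the robust SD of t left 190 genes higher and 386 lower, against 1393 and 1654, and 0 Hox members higher and 0 lower, against 3 and 2; adjusted p of the 5 members called before then ranged from 0.156 (Hoxd4) to 0.320 (Hoxd9). Setting the median of ribosomal protein genes to 0, which lay at -0.04 on the log2 scale, gave 2136 genes higher and 1451 lower, and the same 5 members were called. The adjustment there was over the genes tested, which without that shift gave 1575 higher and 1817 lower. A floor of 50 counts left 4 members tested, all called, and took out Hoxd3, whose mean was 49.2 counts. It also took out Hoxc4, Hoxc5 and Hoxc10, which were not called before. No share over all genes was worked out at that floor, so nothing is read from this count. Under the longest transcript, the transcript with the smallest p, no floor, adjustment over the genes tested, a median of 0 and an adjusted p under 0.01, Hoxd3, Hoxd4 and Hoxc6 were called higher and Hoxd8 and Hoxd9 lower. These alternatives do not test the sign of a member's log2 fold change. Only the 2 settings that put a median at 0 altered it, and those medians lay at -0.001146 (all genes tested) and -0.04 (ribosomal protein genes). Depth limits Hoxc4, Hoxc5 and Hoxc10, whose standard errors were 0.27, 0.22 and 0.35.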
